A study of Mus musculus with 2 samples.

Results

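The genes named as cyclin-dependent kinase (CDK) inhibitors were examined in P5424, a mouse T-cell line, on 2 one-colour Agilent arrays with probes of 60 bases. The members were chosen by name, though with earlier results of these data known. They are every non-control probe whose gene name in the scanner files is Cdkn1a, Cdkn1b, Cdkn1c, Cdkn2a, Cdkn2b, Cdkn2c, Cdkn2d, Cdkn3 or Cdkn2aip. These are 9 genes of 19796 on the array whose name is a RefSeq symbol, and 14 probes of 55681. The labels describe 1 untreated group, P5424 cells with Rag2 and P53 knocked out, measured as replicate 1 and replicate 2. Whether the replicates are separate cultures, whether the line is 1 clone and which part of either gene was deleted is not given. No second condition was measured, so no test between groups was possible and the spread between the arrays may be technical. In such bulk RNA, fewer cells with a transcript and less of it per cell cannot be told apart.

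CDK inhibitors hold back the kinases that drive a cell from G1 into S phase. The INK4 proteins (p16, p15, p18 and p19) bind CDK4 and CDK6 and keep them from the D cyclins, while the CIP/KIP proteins (p21, p27 and p57) bind CDK complexes with cyclins D, E and A. Cdkn2a also encodes ARF, made from another first exon and read in another frame, which binds MDM2 and so stabilises p53. Cdkn1a is a classical target of p53. In developing T cells p27 and p18 are known brakes on thymocyte division.

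The sequences of the probes of the 4 genes with more than 1 probe are shown first, because the results for these genes rest on how their probes compare. Each line gives the last 30 of the 60 bases, 5′ to 3′, and the start of the probe in its transcript. Capitals mark an ATG in 1 Cdkn1a probe and the longest run of A or T (the first one where runs are equal), where it has 4 bases or more, in the Cdkn1b, Cdkn2a and Cdkn2b probes.
Cdkn1a, base 55: acgtcccactttgccagcagaataaaaggt
Cdkn1a, base 147: tcttgtgtttcagccacaggcaccATGtcc
Cdkn1a, base 1619: gctgatcctttctcagtgttgaataccgtg
Cdkn1b, base 2626: aaagcactcgtgcagatatgctgcatatga
Cdkn1b, base 2285: ataaTTTTTgtaatgtgtgaaaaagatgcc
Cdkn2a, base 841: aagggaataatggctggattgtttAAAAAA
Cdkn2a, base 703: ggctttAAAAAAtacataataatgcttttt
Cdkn2b, base 1255: ctctatgcAAAAtagtttaataaccacttt
Cdkn2b, base 811: ccaaggagatttagtattgtatgaagttcc

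None of the 14 probes shared more than 9 bases in a row with a probe of another CDK inhibitor, on either strand. The longest run shared with a probe of any other gene was 13 to 16 bases. The GC content of the member probes ranged from 35.0% to 55.0%. Each probe covers 60 consecutive bases of the mm9 genome, so none crosses an intron. Exon and UTR annotation of these positions was not analysed here.

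A probe counted as detected if its signal carried the scanner software's well-above-background mark on replicate 1 and on replicate 2. By gene, 7 of the 9 CDK inhibitors (77.8%) were detected. Of these 7, 5 have only 1 probe, and Cdkn1b and Cdkn2a were detected with both of their probes. None of the probes of Cdkn1a and Cdkn2b was well above background on either array. Over the whole array 51.6% of the genes with a RefSeq symbol were detected. By probe, 9 of the 14 members (64.3%) were detected, where 40.1% of all probes were. No member probe passed on 1 array only.

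**Figure D1:**
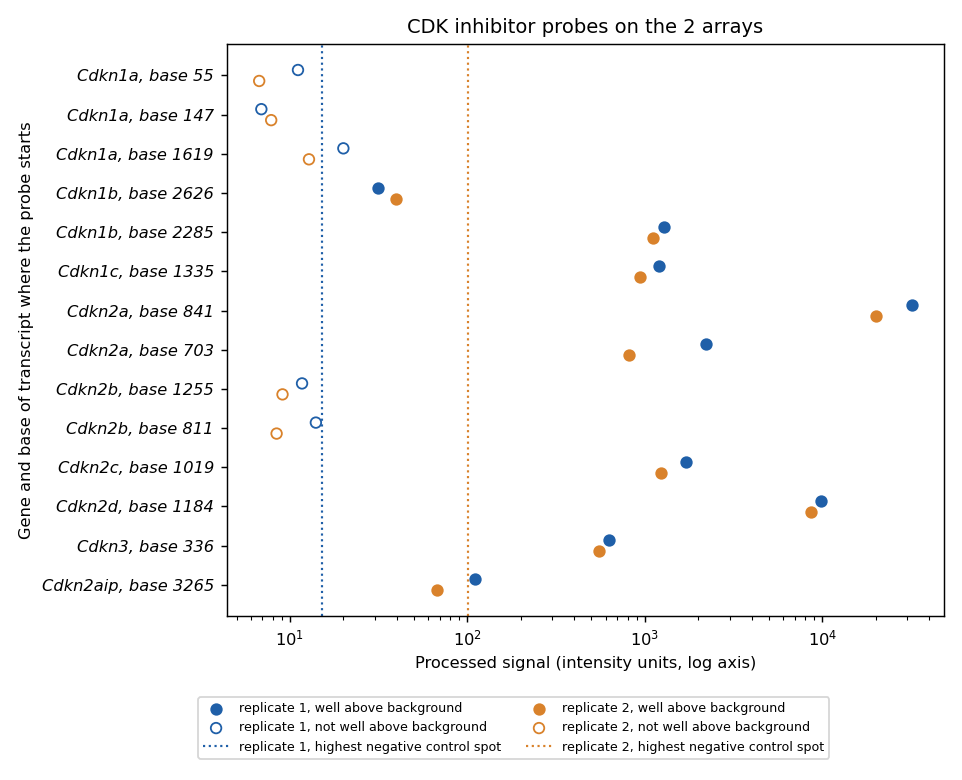
Processed signal (intensity units, log axis) of the 14 CDK inhibitor probes, with replicate 1 in blue and replicate 2 in orange, filled points well above background, open points not, and dotted lines at the highest negative control spot of each array (15.1 and 101, both marked as outliers by the software). The 5 probes of Cdkn1a and Cdkn2b lie at 20.0 units or less on both arrays, and the signals of different probes are not comparable as amounts of RNA.

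The files give intensities with no unit of RNA, and probes differ in how strongly they bind, so no CDK inhibitor is ranked above another. Each value below is a log2 signal minus that of the array's 75th percentile (324 units on replicate 1 and 299 on replicate 2), given as mean ± SD of 2 arrays (n = 2). Of the 9 detected probes 7 lay above that percentile, and 2 when it was taken over detected probes alone. Detected probes are the brighter ones, 40.1% of all probes, and their share above either reference was not worked out. The 2 counts are therefore no result particular to the CDK inhibitors. Of all probes, 42.5% on replicate 1 and 41.2% on replicate 2 were well above background, and 0 spots were saturated.

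Both Cdkn2a probes were detected, with very different signals. The probe at base 841 of NM_009877 (chromosome 4, 88920405 to 88920464, minus strand) had signals of 31926 units on replicate 1 and 20054 on replicate 2, a value of 6.35 ± 0.39. Its neighbour at base 703 (88920543 to 88920602, minus strand) had 2199 and 819 units, a value of 2.11 ± 0.92. Both were lower on replicate 2. The probes start 138 bases apart in the transcript and in the genome. The capitals above show a run of 6 A at the end of the first and inside the second, whose GC content (35.0%) is lower than that of the first (48.3%). In the files each lists both RefSeq transcripts of the gene, NM_009877 and NM_001040654, so neither probe separates the p16 from the ARF transcript.

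Cdkn2b encodes p15, an INK4 inhibitor known to be induced by TGF-beta, and its nearer probe starts 31733 bases beyond those of Cdkn2a. The probe at base 811 of NM_007670 (chromosome 4, 88952720 to 88952779, minus strand) had 14.0 and 8.41 units. That at base 1255 (88952276 to 88952335) had 11.7 and 9.08 units. All 4 signals were under the lowest signal marked well above background, 28.9 units on replicate 1 and 31.1 on replicate 2. These are no fixed cut-off, since the mark is set for each spot. A Gprc5d probe with 30.9 and 39.7 units, for example, was marked on neither array. The software has a weaker criterion, a positive and significant signal. The probe at base 1255 passed it on both arrays and that at base 811 on replicate 1 only. Among all probes well above background on neither array, 29.8% passed it on both.

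The position of these probes was set beside every other probe within 200 kb. Mtap, which encodes methylthioadenosine phosphorylase and is often lost together with the Cdkn2a locus in tumours, was detected at 2.40 ± 0.05 with 1746 and 1536 units on the side away from Cdkn2b. It lies 94.2 kb from the Cdkn2a probe at base 841. The nearest detected probe on that side belongs to LOC100505024, at -2.45 ± 0.25. On the other side the nearest was a lincRNA probe at -1.27 ± 0.28, 146 kb from Cdkn2a and 114 kb from Cdkn2b. Within 200 kb of Cdkn2a, 5 of 20 neighbouring probes were detected, and 8 of 19 around Cdkn2b.

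**Figure D2:**
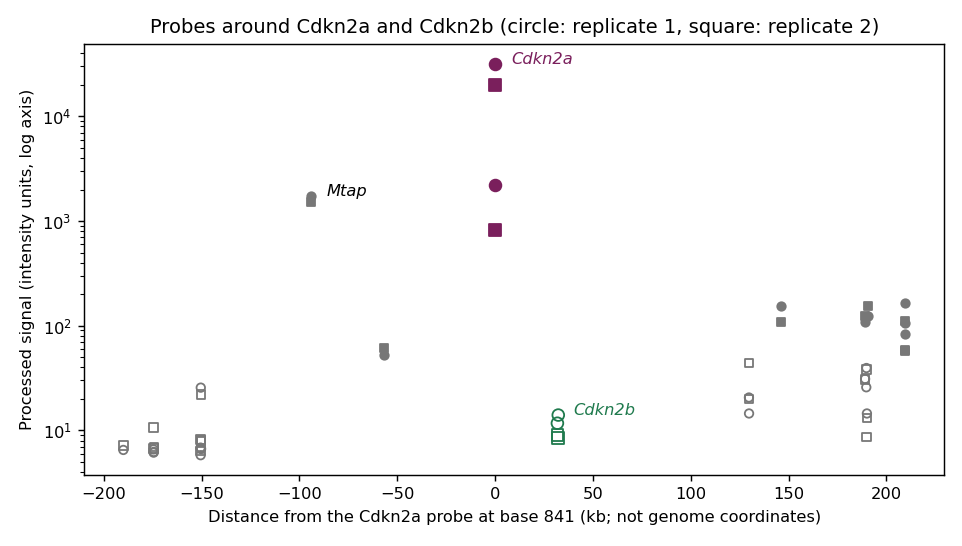
Processed signal (intensity units, log axis) of the Cdkn2a probes (purple), Cdkn2b probes (green) and other probes (grey) against distance in kb from the Cdkn2a probe at base 841, with circles for replicate 1, squares for replicate 2 and filled symbols for detected probes. Cdkn2a, at 819 to 31926 units, and Mtap are filled, and both Cdkn2b probes are open on both arrays.

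The other INK4 genes have 1 probe each, and both were detected. Cdkn2c, which encodes p18, had signals of 1712 and 1233 units and a value of 2.22 ± 0.25 (chromosome 4, 109333508 to 109333567, minus strand, base 1019 of NM_007671). Cdkn2d, which encodes p19INK4d, had 9813 and 8615 units and a value of 4.88 ± 0.05 (chromosome 9, 21092934 to 21092993, minus strand, base 1184 of NM_009878). Replicate 2 minus replicate 1 was -0.07 for Cdkn2d and -0.35 for Cdkn2c. Around Cdkn2d 12 of 16 neighbouring probes were detected, the nearest being Atg4d at 4.76 ± 0.05 and Slc44a2 at 4.93 ± 0.15. Cdkn2c had 3 neighbouring probes, of which 9630013D21Rik, at 0.27 ± 0.04 and 4.49 kb away, and an unnamed probe (A_55_P1985313) at -2.47 ± 0.26 were detected.

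Of the CIP/KIP genes, Cdkn1a lacked a detected probe among its 3. At base 55 of NM_001111099 (chromosome 17, 29227986 to 29228045, plus strand) its probe had 11.1 and 6.71 units. A second probe, at base 147 of ENSMUST00000122348 (29235299 to 29235358), carries the ATG shown in capitals, lists no RefSeq transcript and had 6.90 and 7.84 units. Another probe, at base 1619 of NM_007669 (29237377 to 29237436), lists both RefSeq transcripts of the gene and is printed on 10 spots of each array.

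These 10 spots give a closer look at the Cdkn1a signal. On replicate 1 they ran from 15.8 to 26.4 units with a median of 20.4, and all 10 lay above the highest of 308 negative control spots (15.1 units, itself marked as an outlier). On replicate 2 the software marked 2 spots as outliers, and the other 8 ran from 8.95 to 16.9 units with a median of 13.3. Of the negative control spots 12 were marked as outliers there, among them the highest at 101 and the next at 17.6 units. Of the other 296, with a highest signal of 9.64 units, 3 exceeded the lowest Cdkn1a spot and 0 the median, and 7 of the 8 Cdkn1a spots lay above them all. With outlier controls kept, 11 of 308 exceeded the lowest Cdkn1a spot and 4 the median. On both arrays 10 of 10 spots had a positive and significant signal by the software's weaker criterion, and 0 of 10 were well above background. Among all probes that were well above background on neither array, 29.8% were positive and significant on both arrays, so this state is common. A faint signal was thus measured at this probe on both arrays, under the software's mark for detection. The 10 spots repeat 1 probe, and whether their signal comes from Cdkn1a RNA was not tested.

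**Figure D3:**
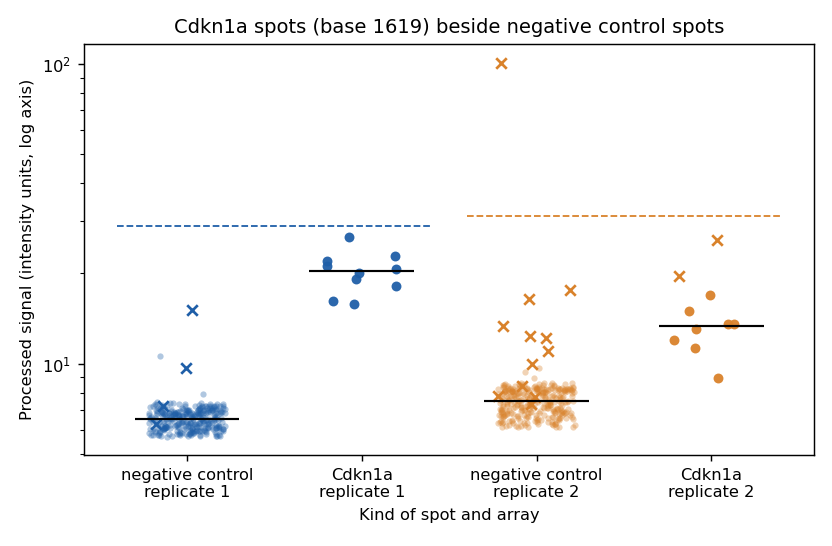
Processed signal (intensity units, log axis) of the 308 negative control spots and the 10 spots of the Cdkn1a probe at base 1619 on each array, with black bars at the median, dashed lines at the lowest signal marked well above background and crosses for spots marked as outliers, which the Cdkn1a medians leave out and the control medians include. The Cdkn1a medians (20.4 on replicate 1, 13.3 on replicate 2) lie above the negative control medians (6.55 and 7.50) and below the dashed lines (28.9 and 31.1).

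Cdkn1b encodes p27 and was detected with both probes, which gave very different signals. One, at base 2285 of NM_009875 (chromosome 6, 134875424 to 134875483, plus strand), had 1288 and 1111 units and a value of 1.94 ± 0.07. The second, at base 2626 of ENSMUST00000067327 (134873606 to 134873665), had 31.3 and 39.5 units and a value of -3.14 ± 0.32. These signals lay near the lowest marked well above background, 28.9 units on replicate 1 and 31.1 on replicate 2. The fainter probe starts 1818 bases before the brighter one in the genome, and it lists no RefSeq transcript, where the brighter one lists NM_009875. Both list the Ensembl transcript ENSMUST00000067327. On replicate 2 the signal of the fainter probe was under 1 negative control spot, the outlier at 101 units, and above all others. With normexp background correction, which here added an offset of 50 units to each signal, its value was -1.77. The nearest detected probe was a forward-strand lincRNA probe 3.72 kb beyond the brighter Cdkn1b probe, at 2.67 ± 0.09 with 1973 and 1982 units. On the lower side the nearest was another lincRNA probe at -2.24 ± 0.01, and in all 8 of 37 neighbouring probes were detected.

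Cdkn1c encodes p57, an imprinted inhibitor silenced on the paternal copy under control of the antisense RNA Kcnq1ot1. Its probe (chromosome 7, 150644753 to 150644812, minus strand, base 1335 of NM_009876) had 1203 and 937 units and a value of 1.77 ± 0.17. It lists the RefSeq transcripts NM_009876 and NM_001161624. The nearest detected neighbours were Slc22a18, a gene of the same imprinted domain, at -0.61 ± 0.01 and 40.4 kb away, and a KCNQ1ot1 probe at -2.71 ± 0.39 and 162 kb away. Of 5 KCNQ1ot1 probes 2 were detected, the other one with 364 and 346 units at 0.19 ± 0.03. Around Cdkn1c 8 of 16 neighbouring probes were detected, and around Cdkn1a 16 of 44, the nearest being a lincRNA probe at -2.73 ± 0.10 and Rab44 at 3.14 ± 0.47.

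Despite their symbols, Cdkn3 and Cdkn2aip do not belong to the INK4 or CIP/KIP families. Cdkn3 encodes KAP, a phosphatase that removes the activating phosphate from CDK2, and Cdkn2aip encodes CARF, a partner of ARF. The Cdkn3 probe (chromosome 14, 47386895 to 47386954, plus strand, base 336 of NM_028222) had 625 and 551 units and a value of 0.92 ± 0.05. The Cdkn2aip probe (chromosome 8, 48794867 to 48794926, minus strand, base 3265 of NM_172407) had 110 and 67.0 units and a value of -1.86 ± 0.42. The Cdkn2aip signal on replicate 2 was also under that 1 outlier control spot and above all others. The nearest detected neighbours of Cdkn2aip were LOC100504975 at -0.55 ± 0.06 and Wwc2 at 1.69 ± 0.12, with 5 of 7 neighbouring probes detected. Cdkn3 had 4 of 6, with Cnih at 6.82 ± 0.00 the nearest on 1 side and no detected probe on the other. Over all members, 63 of 152 neighbouring probes were detected (41.4%), near the 40.1% of the whole array.

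The arrays differed for some CDK inhibitors more than for most probes. Of the 9 detected probes 8 were lower on replicate 2, where 50.7% of all detected probes were, and the median difference (replicate 2 minus replicate 1) was -0.24 for the members and 0.00 for all detected probes. The exception was the faint Cdkn1b probe at base 2626, at 0.46, which was 0.19 with normexp, 0.23 relative to the array median and 0.25 in the authors' deposited table. The Cdkn2a probe at base 703 was the only one over 2-fold apart, at -1.31 or 2.48-fold lower on replicate 2, where 1.15% of all detected probes were over 2-fold apart. The absolute difference of all detected probes had a median of 0.18, a 90th percentile of 0.53 and a 99th percentile of 1.03. Among the members lower on replicate 2, Cdkn1b at base 2285 (-0.09), Cdkn2d (-0.07) and Cdkn3 (-0.07) differed by less than that median. The other Cdkn2a probe, at -0.55, and the Cdkn2aip probe, at -0.59, also lay past the 90th percentile, though the Cdkn2aip difference was -0.25 with normexp background correction. With 1 array per replicate none of these differences could be tested.

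**Figure D4:**
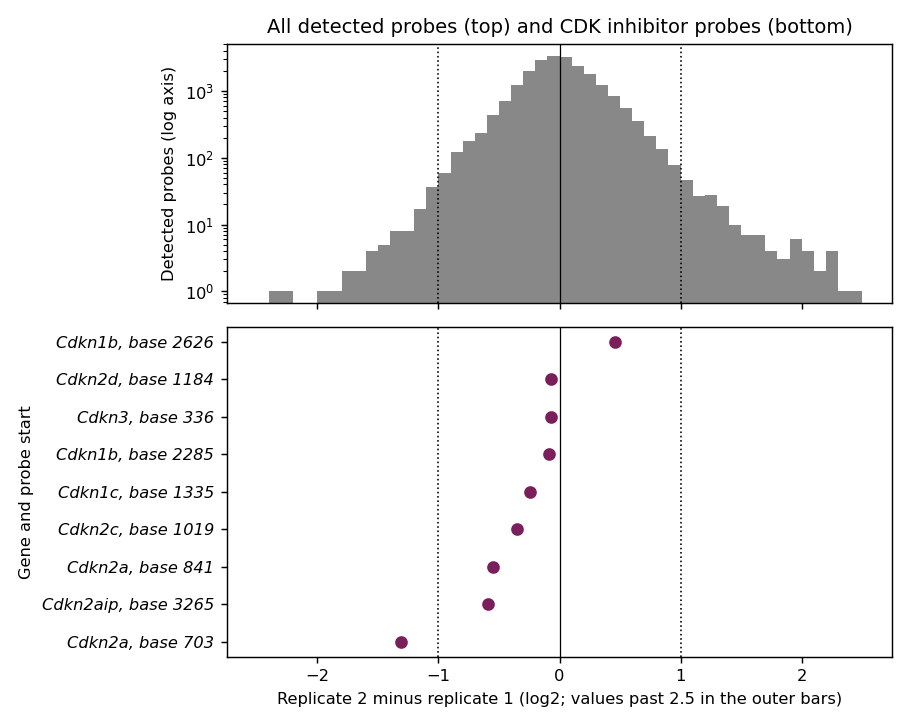
Difference between the arrays (replicate 2 minus replicate 1, log2) for all 22321 detected probes as a histogram with a log count axis (top) and for the 9 detected CDK inhibitor probes as points (bottom), with dotted lines at a 2-fold difference. The Cdkn2a probe at base 703 (-1.31) is the only member past a dotted line, and 8 of the 9 points lie left of 0.

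The place of the Cdkn2a spots on the array was examined beside this difference. The 44 detected spots within 5 rows and columns of the probe at base 703 had a median difference of 0.02 and ran from -0.91 to 1.21. The 54 around the probe at base 841 had a median of 0.04 and ran from -1.07 to 0.81. The local background of the first spot was 31.0 units on both arrays. The lower signal on replicate 2 was shared by both Cdkn2a probes, in unequal measure, and its cause was not tested.

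The kinases and cyclins that these inhibitors bind were mostly detected. Of 5 INK4 targets 4 were detected: Cdk4 at 7.10 ± 0.02 with 3 of 3 probes, Cdk6 at -1.01 ± 0.39, Ccnd1 at 1.02 ± 0.22 and Ccnd3, the D cyclin needed for expansion of immature thymocytes, at 8.08 ± 0.04. Ccnd2 was not well above background, with 19.4 and 8.32 units. Of 9 targets of the CIP/KIP proteins and of KAP 7 were detected, among them Cdk2 at 1.62 ± 0.24, Cdk1 at 1.69 ± 0.34 with 2 of its 3 probes, Ccne1 at 4.05 ± 0.11, Ccna2 at 5.91 ± 0.14 and Ccnb1 at 5.12 ± 0.13. Ccnb2 and Pcna were also detected, and Ccne2 and Ccna1 were not well above background.

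Downstream of the kinases, 11 of 13 pocket protein and E2F genes were detected: Rb1, Rbl1, Rbl2, E2f1, E2f2, E2f3, E2f6, E2f7, E2f8, Tfdp1 and Tfdp2. E2f4 and E2f5 were each well above background on 1 array only. All 10 genes for the degradation of p27 and p21 were detected. They include Skp2, the F-box protein that marks p27 for destruction, at 2.87 ± 0.03 and its cofactor Cks1b at 6.41 ± 0.11, besides Skp1a, Cul1, Rnf123, Ubac1, Cul4a, Ddb1, Dtl and Cops5. Skp1a and Dtl were each detected with 1 of 2 probes.

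Regulators of the inhibitor genes were detected in part. Of 12 regulators of the Cdkn2a and Cdkn2b locus 9 were detected, including the Polycomb repressors Bmi1 at 3.99 ± 0.23 and Ezh2 at 4.42 ± 0.18 and the ARF activator Dmtf1 at -0.65 ± 0.01, besides Suz12, Eed, Cbx7, Ets1, Ets2 and Id1. Cbx7 was detected with 1 of its 2 probes, Cbx8 was found on 1 array, and the repressors Tbx2 and Tbx3 were not well above background. Of 9 regulators of Cdkn1a, Cdkn1b and Cdkn2b 7 were detected: Trp53, Myc, Foxo1, Smad2, Smad3, Smad4 and Klf4. Foxo3 and Zbtb17, which encodes the MYC partner MIZ1, were not well above background. The Trp53 probe had 746 and 996 units (1.47 ± 0.38), and since the deleted part is not given it checks nothing about the knockout.

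All 5 genes listed for ARF and CARF were detected, Trp53 among them. Mdm2 had a value of 4.64 ± 0.22, Npm1, which holds ARF in the nucleolus, 8.57 ± 0.17 with 4 of 4 probes, and Xrn2, an exoribonuclease bound by CARF, 4.27 ± 0.02. Cdkn2aipnl, which was listed for its name, like that of Cdkn2aip, and is no member here, had 5.94 ± 0.06. With each gene counted once, 52 of the 62 listed genes were detected (83.9%), beside 51.6% of all genes with a RefSeq symbol.

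Markers of the labelled cell type were all present: 12 of 12 T-cell genes were detected, at 4.06 to 8.91. Of the B-cell markers Cd79a was detected, at -2.74, and Pax5 and Ms4a1 were not well above background. Of the markers of other cells, 1 of 5 stromal genes was detected (Pdgfrb at 2.33), 1 of 3 erythroid genes (Gata1 at -0.54) and 0 of 3 epithelial genes. Of 4 myeloid markers measured 3 were detected, Csf1r, Cd14 and Itgam, at -2.76 to 4.40, and Lyz2 was not. The highest of these 3 lay within the range of the T-cell genes. Over the whole array 51.6% of genes with a RefSeq symbol were detected. Col1a1, Hba-a1 and Hbb-b1 were not well above background. The part of other cells in the CDK inhibitor signals was not tested.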

How the data were processed

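The scanner values are intensity values that the authors obtained with Agilent Feature Extraction 10.5.1.1, per the file headers, which record spatial and multiplicative detrending and surrogate values near background. A second table of log2 values was deposited by the authors for the same spots; its scale and centring are not given in the sources used here. Positions are on mm9, per the file headers. Probe spots marked as non-uniform or population outliers were left out (negative control spots so marked were kept, except where stated), log2 signals were averaged per probe, and the 75th percentile of each array over all non-control probes was subtracted. A probe with several spots counted as well above background when at least 50% of them were. Partners with several probes are given by the detected probe of highest mean. Neighbours are probes that start within 200 kb of a member probe. All member probes and all listed partners are named, partner values are given for a fixed subset, and for neighbours the nearest detected probe on each side. Mtap was named after its values were seen. The members and lists were chosen with earlier results of these data known. The code for the scaling and the 2-fold rule was checked on arrays simulated from replicate 1, with a set noise and changes well past 2-fold. That check says nothing about the spread between the real arrays. The alternatives covered detection, scaling, background correction, outlier spots and left-out replicates; those for the count of probes lower on replicate 2 were chosen after seeing the data. Python 3.11.15, pandas 2.3.3, R 4.3.3 and limma 3.58.1 were used. With 2 arrays, precision is limited by their number. One marker of another cell type is not reported here.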

Additional observations from a re-analysis of the deposited data

How the results depend on the processing

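The counts of detected CDK inhibitor probes (9) and genes (7) did not change when either replicate was left out, when 1 array sufficed or when outlier spots were kept. They became 11 and 9 when a positive, significant signal sufficed, through Cdkn1a at base 1619 and Cdkn2b at base 1255, and 7 and 6 when a signal above every negative control spot was required as well, which removed the Cdkn1b probe at base 2626 and Cdkn2aip through 1 outlier control spot of 101 units; above the highest control not marked as an outlier, a setting chosen after seeing the data, they stayed at 9 and 7. Neighbouring probes rose from 63 to 106 under the same weaker criterion. Of the 9 detected probes 7 lay above the 75th percentile, and 2 did when the percentile was taken over detected probes, which is a higher reference. The share of all detected probes above either reference was not worked out. With the higher reference the values were -1.57 for Cdkn1b at base 2285, -1.74 for Cdkn1c, -1.40 for Cdkn2a at base 703, -1.29 for Cdkn2c and -2.60 for Cdkn3. Relative to the array median, a lower reference, the Cdkn1b probe at base 2626 was at 0.85 and Cdkn2aip at 2.14. Without scaling no value relative to a percentile exists. In every scaling and background setting run, 1 probe was over 2-fold apart and 8 of 9 were lower on replicate 2, though the array median shifted all detected probes by -0.23 and no scaling by -0.12. With these the share of all detected probes lower on replicate 2 was 78.4% and 67.5%. All detected probes over 2-fold apart numbered 257, and 398 with the array median and 95 with normexp. The Cdkn2aip difference shrank from -0.59 to -0.25 with normexp background correction, which added an offset of 50 units to each signal. The cause was not tested. No paired analysis was possible because there is 1 group.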
